A study of Mus musculus with 8 samples.

Results

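The collagen genes are the 44 measured mouse genes whose symbol consists of Col, a number, the letter a and a number, such as Col1a1. They made up 44 of the 19938 genes with a single symbol on the arrays, and all 44 genes of this form in the RefSeq gene table were among them. They comprise 11 fibrillar collagens, 6 basement membrane collagens (the type IV chains) and 27 others. Expression was measured on Affymetrix arrays in mouse embryonic fibroblasts, which are cells grown in culture from embryos, of 2 lines, line A (MEF10) and line B (MEF16). Each line was sampled with tamoxifen, when the cells expressed PKM1, and without tamoxifen, when they expressed PKM2, the isoforms of the glycolytic enzyme pyruvate kinase. The 4 groups were therefore line B with tamoxifen (PKM1), line B without (PKM2), line A with tamoxifen (PKM1) and line A without (PKM2), with 2 samples each and 8 arrays in all. The question addressed by the design is how gene expression differs once PKM1 replaces PKM2.

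Values are log2 expression values as the authors normalized them, and differences are log2 fold changes with a standard error (SE) from limma. Tamoxifen effects are with minus without tamoxifen, and line effects are line B minus line A. A gene passed the test when its p-value, adjusted by the Benjamini-Hochberg method over all 19938 genes, was under 0.05. The labels name no allele or recombinase, and the effect of tamoxifen itself and that of the isoform cannot be told apart. Each line is a single line, so the line effect is a difference between 2 lines. Nothing in the labels tells whether the pair of samples in a group came from separate cultures. The p-values therefore rest on a spread that may be technical only, and the small number of arrays sets their precision.

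Collagens are the main structural proteins of the extracellular matrix, built from chains wound into a triple helix. Fibrillar collagens are secreted as procollagens, trimmed outside the cell and assembled into fibrils, and those of type I are the bulk product of connective tissue fibroblasts. Type IV collagens form the meshwork of basement membranes, and the remaining families form microfibrils, decorate fibrils, build hexagonal networks or stay anchored in the plasma membrane.

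The promoters of 4 collagen genes with differences described below are given, picked among those with an entry in RefSeq's promoter table (build GRCm38.p6). The choice is not complete. Col11a1, which had the smallest adjusted p-value of the collagens in limma for tamoxifen over both lines, also has an entry and is not shown. Each is the 250 bases before the transcript start in that table, 5′ to 3′ on the strand of the gene, and capitals mark matches to any of 5 motifs searched on both strands. The motifs were the TATA box (TATAAA), the CCAAT box (CCAAT), the GC box (GGGCGG), the RUNX core (TGTGGT) and the AP-1 site (TGANTCA), and no matches of different motifs overlapped. Col10a1, at chr10:34389731-34389980 (+ strand), was the member with the largest difference between the lines. Col8a1, a hexagonal network collagen like Col10a1, at chr16:57754738-57754987 (- strand), and the fibrillar Col3a1, at chr1:45311288-45311537 (+ strand), were lower in every line B sample than in every line A sample without passing the test. Col1a2, at chr6:4505368-4505617 (+ strand), had the third smallest p-value among the collagens for tamoxifen over both lines.
Col10a1: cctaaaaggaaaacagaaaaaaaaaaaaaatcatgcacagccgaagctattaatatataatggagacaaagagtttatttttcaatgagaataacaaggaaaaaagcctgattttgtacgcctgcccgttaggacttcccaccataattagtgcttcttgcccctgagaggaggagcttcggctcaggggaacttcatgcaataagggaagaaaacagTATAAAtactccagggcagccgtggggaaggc
Col8a1: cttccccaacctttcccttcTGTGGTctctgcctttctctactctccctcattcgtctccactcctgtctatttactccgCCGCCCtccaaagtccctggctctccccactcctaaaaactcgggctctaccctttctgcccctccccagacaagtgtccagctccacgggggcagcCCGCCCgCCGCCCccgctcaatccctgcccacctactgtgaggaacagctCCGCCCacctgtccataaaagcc
Col3a1: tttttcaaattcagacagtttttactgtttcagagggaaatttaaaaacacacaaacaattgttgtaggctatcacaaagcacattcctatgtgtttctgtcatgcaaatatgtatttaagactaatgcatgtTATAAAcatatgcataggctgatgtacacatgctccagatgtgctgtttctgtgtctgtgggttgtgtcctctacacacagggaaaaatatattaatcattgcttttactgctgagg
Col1a2: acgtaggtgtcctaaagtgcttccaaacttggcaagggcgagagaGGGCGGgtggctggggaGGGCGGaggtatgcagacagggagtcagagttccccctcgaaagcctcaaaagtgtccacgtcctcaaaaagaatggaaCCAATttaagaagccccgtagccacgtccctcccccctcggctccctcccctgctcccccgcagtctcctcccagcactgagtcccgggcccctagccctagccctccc

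The Col10a1 window was AT-rich, with 41.6% G and C, and held a TATA box 32 to 27 bases before the start and no other match. The Col3a1 window had 35.2% G and C, with its TATA box 117 to 112 bases before the start. Those of Col8a1 and Col1a2 had 60.8% and 62.0% G and C, with 4 and 2 GC boxes and no TATA box. Col8a1 also held a RUNX core, and Col1a2 a CCAAT box. Over 35 collagen genes with an entry (38 windows), 57.9% of windows held a GC box, against 32.7% of all 32841 windows, and their median G and C content was 59.0%, against 52.4%. A TATA box was in 13.2% of the collagen windows and 12.4% of all windows, and a CCAAT box in 34.2% and 33.9%. The RUNX core was in 7.9% and 14.0%, and the AP-1 site in 2.6% and 6.8%. These are matches of letters, not binding sites.

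The arrays carry no detection calls, so the level of 1178 olfactory and vomeronasal receptor genes, which are made mainly by sensory neurons of the nose, served as a description of background. Their means had a median of 5.04, a 95th percentile of 6.83 and a maximum of 9.57. Of the 44 collagens, 41 had a mean above that percentile, as did 68.1% of all other genes, and 6 lay above the highest receptor gene. Probes differ in base composition and were not matched, so a collagen between these values may or may not be expressed. The fibroblast markers Vim and Fn1 lay at 12.96 to 13.14 and 13.02 to 13.41. Means of the 11 listed fibroblast markers ran from 8.13 for Lum to 13.19 for Fn1. The epithelial markers Epcam and Cdh1 lay at 5.89 to 6.09 and 6.52 to 6.79. The other listed epithelial markers had means above the 95th percentile of the receptor means. These were 6.89 for Krt5, 6.90 for Krt14, 6.95 for Krt18, 7.13 for Cldn4, 7.44 for Krt19 and 7.61 for Krt8. Some label fields speak of mammary tumor tissue, while the titles and source speak of embryonic fibroblasts. Samples of a group correlated at 0.9894 and 0.9907 in line B with and without tamoxifen and at 0.9974 and 0.9956 in line A with and without it, so the line B pairs were further apart.

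With tamoxifen, 0 of the 44 collagens passed the test over both lines in limma, where 1.32% of all genes did. At an unadjusted p under 0.05 there were 0 collagens with a positive and 5 with a negative difference, 11.4% of them. The share of all genes was 9.85% in either direction and 4.32% as lower. The 5 were Col11a1, Col5a2, Col1a2 and Col2a1, which are fibrillar, and Col6a1, a microfibril chain. The difference was negative for 32 of 44 collagens, with a median of -0.04, and for 55.4% of all genes, with a median of -0.01. By class the medians were -0.13 for the 11 fibrillar collagens, 0.01 for the 6 basement membrane collagens and -0.03 for the 27 others. The 95% interval lay within 1 log2 unit of 0 for 43 of 44 collagens and within 0.5 for 41, and Col1a1 was the exception on the wider bound. With array weights, an alternative that lets noisier arrays count less, 983 of all 19938 genes passed over both lines. Under that setting 3 of 44 collagens passed, all as lower. They were Col11a1 (-0.30, adjusted p = 0.00857), Col5a2 (-0.25, adjusted p = 0.0193) and Col2a1 (-0.30, adjusted p = 0.021).

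**Figure D1:**
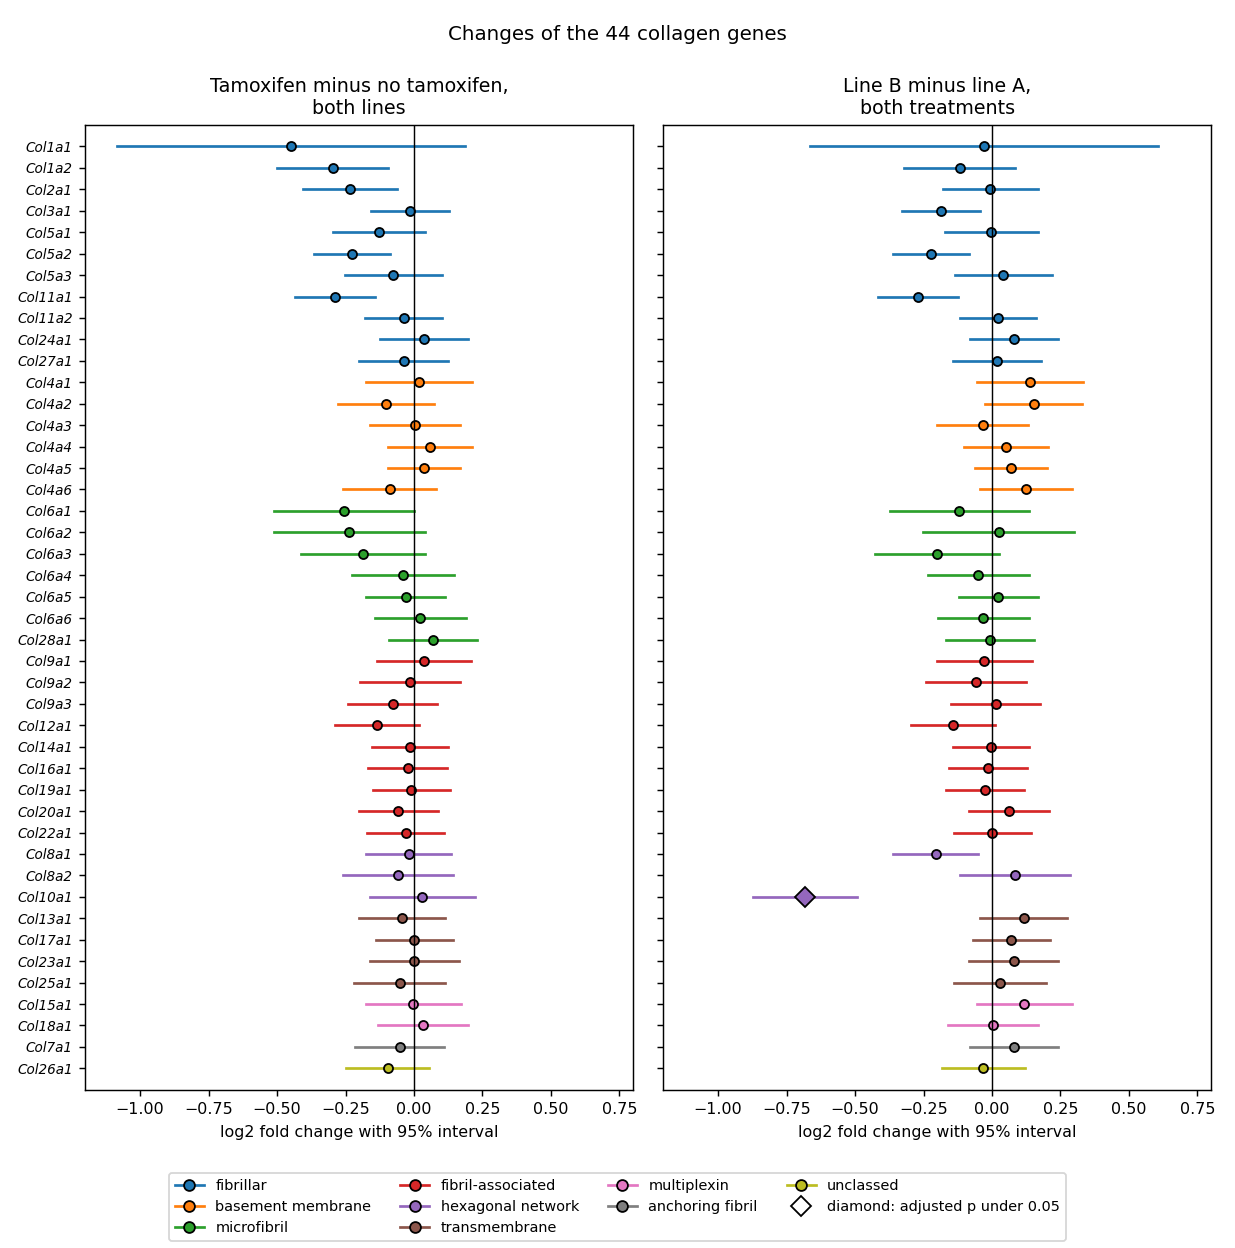
The log2 fold change of each of the 44 collagens is plotted with its 95% interval, for tamoxifen over both lines and for line B minus line A, grouped by class. Most intervals cross 0, the Col1a1 interval is the widest, and Col10a1 lies apart in the line comparison at -0.68.

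The fibrillar collagens held the 3 most negative differences with tamoxifen, and 10 of 11 had a negative sign over both lines, though 0 of 11 passed. Col11a1 encodes a chain of type XI collagen, a minor fibrillar collagen best known from cartilage that sets fibril diameter. Col11a1 had log2 values of 8.38 and 8.53 in line B with tamoxifen, 8.78 and 8.66 in line B without, 8.70 and 8.71 in line A with it and 9.01 and 9.01 in line A without. Within each line both samples with tamoxifen lay below both without, while line B without tamoxifen overlapped line A with it. The difference over both lines was -0.29 (SE 0.07, 95% interval -0.43 to -0.14, adjusted p = 0.0756), -0.27 in line B and -0.31 in line A.

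Col5a2 encodes a chain of type V collagen, which is built into type I fibrils and controls how they start. Col5a2 had log2 values of 9.80 and 9.89 in line B with tamoxifen, 10.05 and 9.99 in line B without, 10.03 and 10.00 in line A with it and 10.31 and 10.28 in line A without. The samples with tamoxifen were again the lower pair within each line. The difference was -0.23 (SE 0.06, 95% interval -0.37 to -0.09, adjusted p = 0.16), with -0.17 in line B and -0.28 in line A. Its partner Col5a1 differed by -0.13 (SE 0.08, adjusted p = 0.665) and Col5a3 by -0.08 (SE 0.08, adjusted p = 0.846). Col5a1 had 8.38 and 8.25 in line B with tamoxifen, 8.32 and 8.52 in line B without, 8.30 and 8.27 in line A with it and 8.54 and 8.35 in line A without. The 4 samples with tamoxifen and the 4 without overlapped.

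Type I collagen combines chains of Col1a1 and Col1a2, the main fibrillar products of fibroblasts. Col1a2 was at 10.35 and 10.12 in line B with tamoxifen, 10.33 and 10.60 in line B without, 10.32 and 10.26 in line A with it and 10.77 and 10.53 in line A without. In line A both tamoxifen samples were lower, and in line B the pairs overlapped by a narrow margin. The Col1a2 difference was -0.30 (SE 0.09, 95% interval -0.50 to -0.09, adjusted p = 0.23). Col1a1 was at 10.20 and 9.00 in line B with tamoxifen, 9.26 and 10.30 in line B without, 9.44 and 9.27 in line A with it and 10.40 and 9.75 in line A without. The members of a pair lay up to 1.20 log2 units apart, wider than any difference between groups. Its difference of -0.45 (SE 0.29, 95% interval -1.09 to 0.19, adjusted p = 0.702) was the most negative of any collagen and also the least precise.

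Col2a1, the main fibrillar collagen of cartilage, was the only collagen whose 4 samples with tamoxifen did not overlap the 4 without, as was the case for 5.31% of all genes. Col2a1 had log2 values of 7.71 and 7.71 in line B with tamoxifen, 7.73 and 7.91 in line B without, 7.65 and 7.53 in line A with it and 7.98 and 7.93 in line A without. The margin was 0.02 log2 units between the lowest sample without tamoxifen and the highest with it. The difference was -0.23 (SE 0.08, 95% interval -0.41 to -0.06, adjusted p = 0.278), -0.11 in line B and -0.36 in line A. Col3a1, which forms type III collagen of soft tissues, showed little difference. Col3a1 had log2 values of 9.01 and 8.95 in line B with tamoxifen, 9.07 and 8.98 in line B without, 9.14 and 9.26 in line A with it and 9.18 and 9.17 in line A without. Its tamoxifen difference was -0.01 (SE 0.06, 95% interval -0.16 to 0.13, adjusted p = 0.97). The other fibrillar members, Col11a2, Col24a1 and Col27a1, had differences between -0.04 and 0.04.

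**Figure D2:**
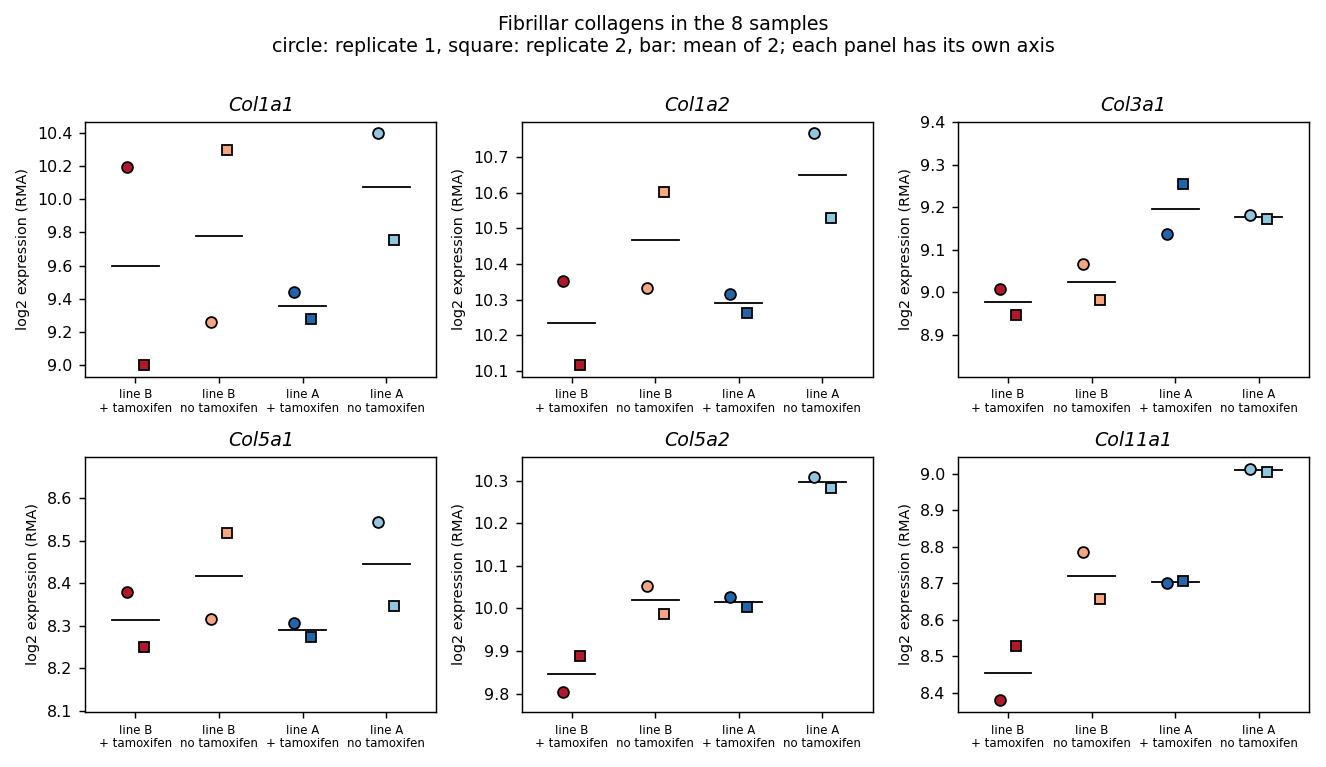
Log2 expression of fibrillar collagens in the 8 samples, with the 2 replicates of each group as a circle and a square, a bar for their mean, and an axis of its own for each panel. Col11a1 and Col5a2 are lower with tamoxifen within each line, and the Col1a1 replicates are far apart in line B.

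The basement membrane collagens showed no common direction with tamoxifen over both lines, with 4 of 6 differences positive and 0 of 6 past the test. In line B 5 of 6 were positive, against 48.2% of all genes, and in line A 5 of 6 were negative, against 55.4%. Col4a1 and Col4a2, the neighbouring genes whose chains make the ubiquitous type IV network, differed from each other in sign. Col4a1 had log2 values of 8.50 and 8.35 in line B with tamoxifen, 8.18 and 8.38 in line B without, 8.18 and 8.14 in line A with it and 8.37 and 8.16 in line A without. Col4a2 had 8.53 and 8.33 in line B with tamoxifen, 8.43 and 8.69 in line B without, 8.32 and 8.29 in line A with it and 8.43 and 8.33 in line A without. The Col4a1 pairs with and without tamoxifen overlapped in both lines. The Col4a2 pairs overlapped in line B and not in line A, where both samples with tamoxifen were lower. The tamoxifen difference was 0.02 (SE 0.09, adjusted p = 0.973) for Col4a1 and -0.10 (SE 0.08, adjusted p = 0.765) for Col4a2. Col4a3 and Col4a4, chains of the kidney glomerular network, differed by 0.00 and 0.06, and Col4a5 and Col4a6 by 0.04 and -0.09. Col4a4 was at 7.36 and 7.38 in line B with tamoxifen, 7.15 and 7.34 in line B without, 7.25 and 7.26 in line A with it and 7.24 and 7.27 in line A without. In line B both samples with tamoxifen were above both without, and in line A the pairs overlapped.

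Type VI collagen forms beaded microfibrils around cells, from chains of Col6a1, Col6a2 and Col6a3. Col6a1 had log2 values of 8.84 and 8.41 in line B with tamoxifen, 8.69 and 9.02 in line B without, 8.78 and 8.65 in line A with it and 9.15 and 8.85 in line A without. Col6a2 had log2 values of 8.35 and 8.05 in line B with tamoxifen, 8.20 and 8.75 in line B without, 8.17 and 8.25 in line A with it and 8.57 and 8.26 in line A without. Col6a3 had log2 values of 10.11 and 9.68 in line B with tamoxifen, 10.07 and 10.18 in line B without, 10.17 and 10.11 in line A with it and 10.42 and 10.14 in line A without. All 3 chains had a negative tamoxifen difference in both lines. The pairs overlapped in line B for all 3 and in line A for Col6a3, and samples of one group differed by up to 0.55 for Col6a2. Over both lines the difference was -0.26 (SE 0.11, adjusted p = 0.503) for Col6a1, -0.24 (SE 0.12, adjusted p = 0.605) for Col6a2 and -0.19 (SE 0.10, adjusted p = 0.631) for Col6a3. The remaining chains of this family, Col6a4, Col6a5 and Col6a6, and Col28a1, whose difference of 0.07 (SE 0.07) was the most positive of any collagen, lay between -0.04 and 0.07. Col28a1 had log2 values of 7.23 and 7.24 in line B with tamoxifen, 7.15 and 7.23 in line B without, 7.30 and 7.23 in line A with it and 7.05 and 7.30 in line A without. Its lowest value and one of its highest both came from line A without tamoxifen.

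**Figure D3:**
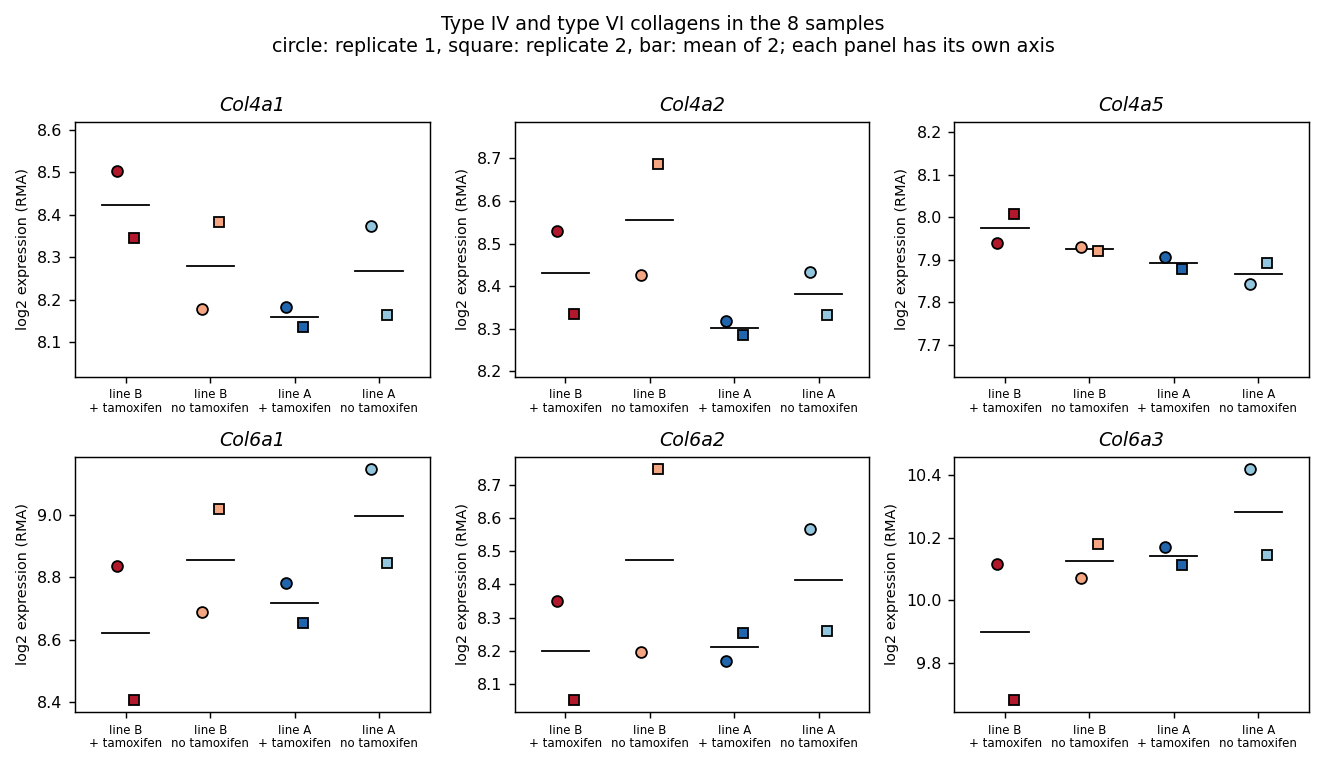
Log2 expression of type IV (upper) and type VI (lower) collagens in the 8 samples, with replicates as a circle and a square and the group mean as a bar. Col6a1, Col6a2 and Col6a3 have lower means with tamoxifen in both lines, with overlapping replicates in line B and, for Col6a3, in line A.

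Among the fibril-associated collagens, which coat fibrils and link them to other matrix, Col12a1 was bright in every sample. Col12a1 had log2 values of 12.42 and 12.28 in line B with tamoxifen, 12.41 and 12.42 in line B without, 12.46 and 12.38 in line A with it and 12.69 and 12.57 in line A without. In line A both tamoxifen samples were lower and in line B the pairs overlapped, with a difference over both lines of -0.14 (SE 0.07, adjusted p = 0.584). Col14a1 had log2 values of 7.46 and 7.49 in line B with tamoxifen, 7.48 and 7.48 in line B without, 7.45 and 7.49 in line A with it and 7.56 and 7.43 in line A without. Col14a1, a related chain of dense connective tissue, differed by -0.01 (SE 0.06, adjusted p = 0.968). The 9 fibril-associated members ranged from -0.14 to 0.04, the low end being Col12a1. The type IX chains Col9a1, Col9a2 and Col9a3, which decorate cartilage fibrils, were at 0.04, -0.01 and -0.08. The multiplexins Col15a1 and Col18a1, proteoglycan collagens of basement membrane zones, differed by -0.00 and 0.03. Col15a1 was at 7.25 and 7.41 in line B with tamoxifen, 7.18 and 7.39 in line B without, 7.14 and 7.19 in line A with it and 7.31 and 7.12 in line A without. Col18a1 was at 7.63 and 7.64 in line B with tamoxifen, 7.51 and 7.61 in line B without, 7.57 and 7.60 in line A with it and 7.73 and 7.47 in line A without. The treatments overlapped for Col15a1 in both lines and for Col18a1 in line A, while in line B both tamoxifen samples of Col18a1 were above both without. The 4 transmembrane collagens, Col13a1, Col17a1, Col23a1 and Col25a1, ranged from -0.05 to 0.00, and the anchoring fibril collagen Col7a1 and the unclassed Col26a1 were at -0.05 and -0.10.

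Replicate spread was unequal among the collagens and was widest for the type I and type VI chains. The pooled SD within groups was 0.61 for Col1a1, and 9 of 19938 genes had a larger one. It was 0.25 for Col6a2, 0.22 for Col6a1, 0.19 for Col6a3 and 0.15 for Col1a2, against a median of 0.09 over the collagens and 0.11 over all genes. For Col1a1 replicate 1 minus replicate 2 was 1.20 in line B with tamoxifen, -1.04 in line B without, 0.17 in line A with and 0.65 in line A without. The gap had the same sign as that of Col1a1 in each of the 4 groups for Col1a2, Col6a1 and Col6a3, and in 3 of 4 for Col6a2. That was so in all 4 groups for 9 of the 43 other collagens, 20.9%, and for 14.6% of all other genes. The mean of the 31 measured collagen processing genes moved likewise, at 9.66 and 9.31 in line B with tamoxifen, 9.44 and 9.62 in line B without, 9.52 and 9.43 in line A with and 9.58 and 9.47 in line A without. The means of the collagen receptor, collagenase, other basement membrane, TGF-beta and smooth muscle lists had the same signs in all 4 groups too, so this was not particular to the processing genes. Among the collagen classes the fibrillar and microfibril means had these signs and the others did not. The fibrillar mean was 8.61 and 8.50 in line B with tamoxifen and 8.56 and 8.75 without. In line A it was 8.56 and 8.54 with tamoxifen and 8.85 and 8.70 without. Whether this shared movement bears on the tamoxifen differences was not tested. Leaving out single line B arrays moved the Col1a1 difference in line B, -0.18 with all samples, to between -0.78 and 0.42. It was -0.70 without replicate 1 and 0.34 without replicate 2 of the PKM2 samples, and -0.78 without replicate 1 and 0.42 without replicate 2 of the PKM1 samples.

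**Figure D4:**
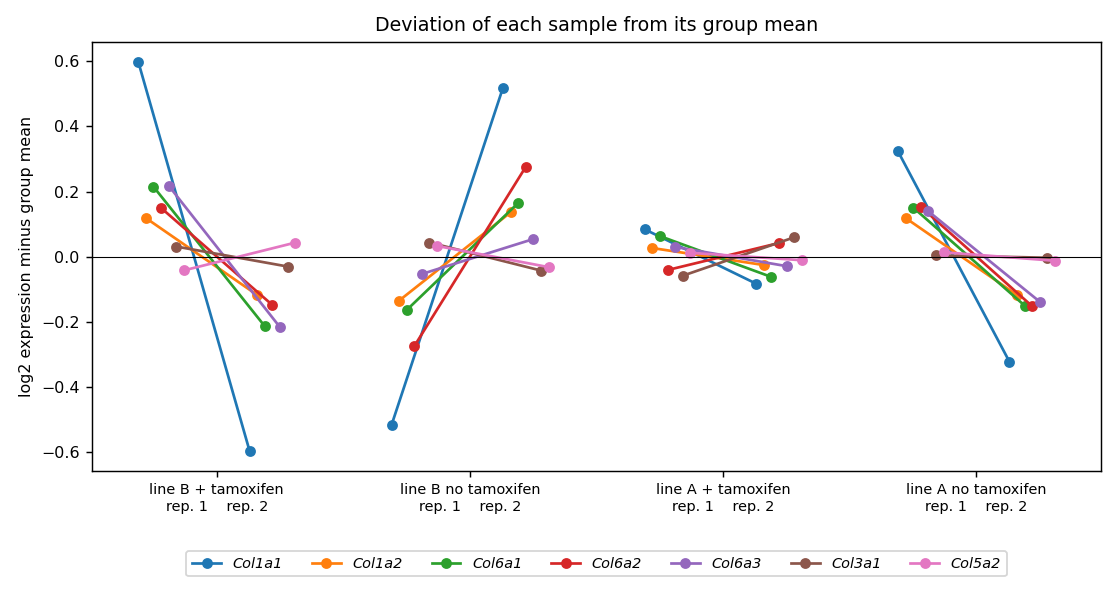
Each point is a sample of the named collagen minus the mean of its group, in log2 units, with lines joining the 2 replicates of a group. Col1a1 spans 1.20 in line B with tamoxifen, and Col1a2, Col6a1 and Col6a3 slope the same way as Col1a1 in all 4 groups.

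Within each line, 0 of 44 collagens passed for tamoxifen, and the balance of signs differed. In line B, where 0.0201% of all genes passed, 23 of 44 differences were negative and the median was -0.00. At an unadjusted p under 0.05 there were 0 higher and 1 lower in line B, 2.27% of the collagens. The share of all genes there was 4.82% in either direction and 2.37% as lower. In line A there were 0 higher and 4 lower, 9.09%, against 8.1% of all genes in either direction and 3.11% as lower. In line A, where 0.502% of all genes passed, 39 of 44 were negative, 88.6%, against 55.4% of all genes, and the median was -0.08 against -0.02. Without any 1 of the 4 line A arrays, 34 to 38 of the 44 were negative, and with the arrays shifted to a common median 36 were, against 49.9% of all genes. In line B between 14 and 32 of 44 were negative when any 1 of its arrays was left out. The 2 samples with tamoxifen did not overlap the 2 without for 26 collagens in line A, 59.1%, where 47.6% of all genes were so separated. With tamoxifen 24 of these were lower and 2 higher, where 26.2% of all genes were separated as lower and 21.3% as higher. Without PKM2 replicate 1 or 2 of line B the median of all 44 there was -0.07 or 0.06. In line B the pairs did not overlap for 10 collagens, 22.7%, against 24.8% of all genes. There 3 were lower and 7 higher with tamoxifen, where 12.9% of all genes were separated as lower and 12% as higher.

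The fibrillar median was -0.10 in line B and -0.16 in line A, that of the basement membrane collagens 0.05 and -0.07. Single arrays moved these medians: the fibrillar one in line A was -0.06 without PKM2 replicate 1 and -0.27 without PKM2 replicate 2, and in line B it was -0.00 without PKM2 replicate 2. The largest positive difference in line A was that of Col10a1, 0.19 (SE 0.10). Testing line B minus line A in their tamoxifen effects called 0 collagens and 0 genes in limma. At an unadjusted p under 0.05 it gave 0 collagens, against 2.83% of all genes. The sign of that difference was positive for 36 of 44 collagens, against 51.1% of all genes, with 25 to 37 positive when any 1 sample was left out and 30 with the arrays shifted to a common median. The sign was the same in both lines for 24 of 44 collagens, 54.5%, against 59.2% of all genes.

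Between the lines, 1 of 44 collagens passed over both treatments, Col10a1, which was lower in line B, where 1.47% of all genes passed and 0.717% did as lower. Col10a1 encodes type X collagen, a short-chain network collagen best known from hypertrophic cartilage. Col10a1 had log2 values of 9.00 and 9.21 in line B with tamoxifen, 9.27 and 9.19 in line B without, 9.89 and 10.00 in line A with it and 9.73 and 9.79 in line A without. All 4 line B samples lay below all 4 line A samples, with 0.45 log2 units between the nearest. The line B mean was 9.17 and the line A mean 9.85, a difference of -0.68 (SE 0.09, 95% interval -0.87 to -0.49, adjusted p = 0.00274), 1.61-fold lower in line B. It passed under all 16 alternative settings, with values from -0.73 to -0.61 and adjusted p from 0.00079 to 0.0233. The difference was -0.84 (SE 0.10, adjusted p = 0.0147) with tamoxifen, where 0.532% of all genes passed, and -0.53 (SE 0.10, adjusted p = 0.14) without it, where 0 collagens and 0.326% of all genes passed. At an unadjusted p under 0.05 without tamoxifen there were 0 higher and 3 lower collagens, 6.82% of them. The share of all genes was 5.2% in either direction and 2.03% as lower. The call with tamoxifen was lost without either line A PKM1 sample (adjusted p = 0.149 without replicate 1 and 0.242 without replicate 2) and without line B PKM1 replicate 1 (adjusted p = 0.0559). The difference between those effects was -0.32 (SE 0.15, unadjusted p = 0.0621) and did not pass after adjustment over all genes.

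Col8a1 and Col8a2 encode the chains of type VIII collagen, a network of similar build found in vessel walls and the eye. Col8a1 had log2 values of 10.90 and 11.10 in line B with tamoxifen, 11.07 and 10.96 in line B without, 11.22 and 11.18 in line A with it and 11.17 and 11.28 in line A without. Every line B sample was below every line A sample, and the difference of -0.21 (SE 0.07, 95% interval -0.36 to -0.05, adjusted p = 0.328) did not pass. Col8a2 had log2 values of 7.05 and 7.19 in line B with tamoxifen, 6.89 and 7.21 in line B without, 6.89 and 6.93 in line A with it and 7.06 and 7.13 in line A without. Here the lines overlapped, and the difference was 0.08 (SE 0.09, adjusted p = 0.925).

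**Figure D5:**
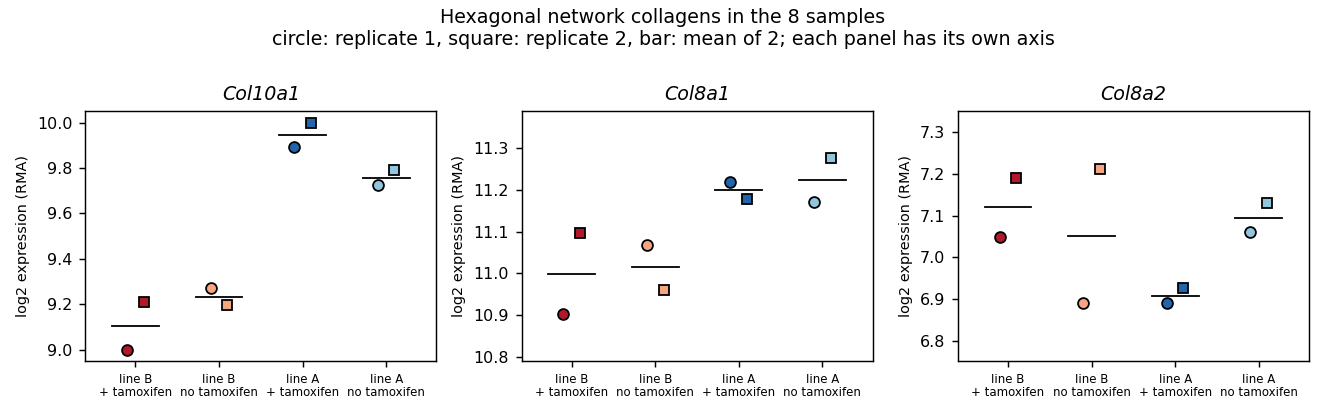
Log2 expression of the 3 hexagonal network collagens in the 8 samples, with replicates as a circle and a square, the group mean as a bar and an axis of its own for each panel. Col10a1 and Col8a1 are lower in all 4 line B samples than in all 4 line A samples, and Col8a2 overlaps.

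The remaining line differences among the collagens were smaller. The lines did not overlap over both treatments for 4 collagens, 9.09%, against 4.89% of all genes. Col10a1, Col8a1 and Col3a1 were the lower ones in line B, and Col4a5 was the higher one. For Col3a1 the difference was -0.19 (SE 0.06, 95% interval -0.33 to -0.04, adjusted p = 0.337). Col4a5 had log2 values of 7.94 and 8.01 in line B with tamoxifen, 7.93 and 7.92 in line B without, 7.91 and 7.88 in line A with it and 7.84 and 7.89 in line A without. Col4a5, an X-linked type IV chain, was higher in line B by 0.07 (SE 0.06, adjusted p = 0.89), with nearest samples 0.01 apart. Col11a1 and Col5a2 differed by -0.27 (SE 0.07, adjusted p = 0.101) and -0.22 (SE 0.06, adjusted p = 0.179), with overlap between line B without tamoxifen and line A with it. With array weights, where 441 of all 19938 genes passed, Col11a1 passed as lower in line B (-0.29, adjusted p = 0.0352). The medians were -0.01 for fibrillar and 0.10 for basement membrane collagens, against 0.02 for all genes. Col4a2 and Col4a1 held the most positive differences of the 44, at 0.15 (SE 0.08, adjusted p = 0.7) and 0.14 (SE 0.09, adjusted p = 0.803). With tamoxifen 6 of 6 basement membrane collagens had a positive difference, with a median of 0.12, and 4 of 6 did without it, with a median of 0.02. The line difference had the same sign with and without tamoxifen for 23 of 44 collagens, 52.3%, against 56.4% of all genes.

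Some markers of other cell types differed between the lines, where 0.752% of all genes passed as higher and 0.717% as lower in line B. On the list of chondrocyte markers 2 of 8 genes passed as lower, the matrix genes Comp (-0.40, adjusted p = 0.0196) and Hapln1 (-0.58, adjusted p = 0.0247). Hapln1 had 6.57 and 6.72 in line B with tamoxifen, 7.11 and 6.94 in line B without, 7.12 and 7.19 in line A with it and 7.42 and 7.94 in line A without. The line difference was positive for 4 and negative for 4 of the 8, with a median of -0.01, and that of Col2a1 was -0.01. The mean of all 8 was 6.84 and 6.81 in line B with tamoxifen, 6.86 and 6.94 in line B without, 6.90 and 6.92 in line A with and 7.05 and 7.07 in line A without. Acan, which encodes the main cartilage proteoglycan, was at 6.45 to 6.83, with a mean of 6.62, below the 95th percentile of the receptor means. The means of Matn1 (5.97), Cnmd (6.55), Matn3 (6.73) and Chad (6.82) were below it too. Those of Hapln1 (7.13), Comp (7.26) and Sox9 (8.31) were above it. Of the 3 tendon markers Scx passed as lower in line B (-0.29, adjusted p = 0.0419). On the macrophage and blood list 2 of 6 passed as higher in line B, Adgre1 and Tyrobp. Adgre1 was at 6.06 to 6.34 in line B and 5.45 to 5.78 in line A, all below that percentile. Tyrobp was at 7.29 to 7.67 in line B, above it, and 6.62 to 6.83 in line A. Ptprc, the pan-leukocyte marker, was at 6.54 to 7.33 in line B and 6.14 to 6.39 in line A. Its mean of 6.56 was below the percentile. The mean of these 6 lay at 6.89 to 7.09 in line B and 6.45 to 6.60 in line A. On the endothelial list 1 of 6 passed as higher (Emcn), while 4 of 6 differences were negative and the median was -0.02. On the smooth muscle list 2 of 5 passed as higher (Myh11 and Lmod1), 5 of 5 differences were positive and the median was 0.18, and on the epithelial and osteoblast lists 0 of 8 and 0 of 4. Fewer cells of a type and less RNA per cell cannot be told apart in such samples, and the part of these markers in the collagen values was not tested.

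Genes that make, bind and cut collagen were set beside the collagens themselves. Of 31 measured collagen processing genes, 1 passed with tamoxifen, where 0.808% of all genes passed as higher and 0.512% as lower. It was P3h2, a prolyl 3-hydroxylase acting on collagen chains, and it was higher. At an unadjusted p under 0.05 there were 1 higher and 2 lower processing genes, against 9.85% of all genes in either direction. P3h2 had log2 values of 8.79 and 8.83 in line B with tamoxifen, 8.40 and 8.27 in line B without, 8.34 and 8.46 in line A with it and 7.85 and 8.12 in line A without. Its tamoxifen difference was 0.44 (SE 0.08, adjusted p = 0.0237), and it was also higher in line B by 0.38 (SE 0.08, adjusted p = 0.0434). Tll1, a protease of the family that trims procollagen ends, was higher in line B by 0.46 (SE 0.07, adjusted p = 0.00971). P3h2 and Tll1 were the 2 of 31 that passed between the lines, where 0.752% of all genes passed as higher. Serpinh1, the collagen chaperone, differed by -0.12 (SE 0.07) with tamoxifen and did not pass. The medians of the list were -0.03 with tamoxifen and -0.02 between the lines.

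Of 8 collagenases, 1 passed with tamoxifen, where 0.808% of all genes passed as higher and 0.512% as lower. It was Mmp13, higher by 1.45 (SE 0.15, adjusted p = 0.00175). At an unadjusted p under 0.05 there were 3 higher and 1 lower of the 8, against 9.85% of all genes in either direction. Mmp13 had log2 values of 9.52 and 9.43 in line B with tamoxifen, 8.55 and 8.34 in line B without, 10.23 and 10.42 in line A with it and 8.41 and 8.52 in line A without. Its groups did not overlap between treatments. Of 9 measured collagen receptors, 16 TGF-beta pathway genes and 16 other basement membrane genes, 0 passed in either comparison. At an unadjusted p under 0.05 there were 1, 2 and 2 with tamoxifen, against 9.85% of all genes, and 0, 3 and 4 between the lines, against 8.15%. The medians with tamoxifen were 0.03, 0.02 and -0.08. Among the fibroblast markers, 2 of 11 passed as higher with tamoxifen, against 0.808% of all genes. They were the proteoglycan genes Lum and Dcn, whose products bind collagen fibrils. Between the lines Lum passed as lower in line B and Thy1 and Twist2 as higher, where 0.717% of all genes passed as lower and 0.752% as higher.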

How the data were processed

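RNA of 8 samples in 4 groups was measured on Affymetrix arrays. Per the labels, the deposited values are log2 expression values that the authors made by RMA in Affymetrix Expression Console (version not given in the sources used here), and the array medians lay between 7.17 and 7.24. RMA corrects background, equalises the arrays' distributions and summarises probes, which compresses differences of dim genes. Of 35556 probe sets, GEO's platform annotation gave 1 symbol for 21789, several for 1621 and none here for 12146. The brightest probe set by mean of the 8 samples stood for a gene, which left 19938 genes.

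Sample titles set the groups. Replicates carry numbers in sample order only, which pair no samples. Tests were limma 3.58.1 moderated linear models (R 4.3.3), adjusted over all genes by Benjamini and Hochberg. Effects over both lines or both treatments came from an additive model (5 residual degrees of freedom) and the others from a model of the 4 group means (4 residual degrees of freedom). The code was tested on simulated data. Promoter sequences and gene order are RefSeq's, and tables were handled in Python 3.11.15 with pandas 2.3.3. The collagens described with every sample's value were those that passed any test, commonly fibroblast-made ones, and the most extreme in each direction. The per-sample values of Col2a1, Col8a1 and Col8a2, and the genes printed with a promoter, were picked once their values were known. The members and the gene lists were chosen with earlier results of these data known. Alternatives were other array scalings, a dim filter, eBayes with trend and robust, array weights, other probe set rules, other models and leaving out each sample.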

Additional observations from a re-analysis of the deposited data

How the results depend on the processing

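No paired analysis was possible because the numbers in the labels follow sample order and pair no samples. Among the settings that kept all samples, array weights were the one that changed which collagens passed: 3 did for tamoxifen over both lines (0 otherwise), 1 in line A (Col2a1, -0.36, adjusted p = 0.0457), and 2 between the lines over both treatments (Col10a1, and Col11a1 at -0.29, adjusted p = 0.0352). Collagens passing between the lines with tamoxifen numbered 0 to 1 when any 1 sample was left out. Counts over all genes, which give the background shares, moved more. For tamoxifen over both lines, 263 genes passed, 983 with array weights, 132 with no term for the line, and 58 to 353 when 1 sample was left out. In line A, 100 passed, 525 with array weights, 543 in a fit of its 4 samples alone, 183 with every probe set on its own, and 0 to 143 when 1 sample was left out. In line B, 4 passed, 1 with array weights, 2 in a fit of its 4 samples alone, and 0 to 6 when 1 sample was left out. Between the lines over both treatments, 293 passed, 441 with array weights, 128 with no term for tamoxifen, and 116 to 283 when 1 sample was left out. Without tamoxifen 65 passed (4 to 79 when 1 sample was left out), and with it 106 (195 with every probe set on its own, 0 to 102 when 1 sample was left out). The causes of these shifts were not tested. No detection calls exist, so differences of dim collagens may be understated.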

Other observations

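Collagen genes often lie next to each other in the genome, several as head-to-head pairs. RefSeq's gene order holds 8 pairs of neighbouring collagens, and the tamoxifen difference over both lines had the same sign in 4 of 8 of them. Col6a1 and Col6a2 were at -0.26 and -0.24, while Col3a1 and Col5a2 were at -0.01 and -0.23 and Col4a1 and Col4a2 at 0.02 and -0.10. The line difference over both treatments had the same sign in 4 of 8 pairs as well, and there Col3a1 and Col5a2 were at -0.19 and -0.22 and Col4a1 and Col4a2 at 0.14 and 0.15. Taken by treatment, the line difference had the same sign in 8 of 8 pairs with tamoxifen and in 7 of 8 without. Taken by line, the tamoxifen difference had the same sign in 6 of 8 pairs in line A and 5 of 8 in line B. The share over other neighbouring genes was not computed.

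The microfibril genes Col6a5 and Col6a6 have a second probe set on the array. For Col6a6 the brighter probe set gave a tamoxifen difference over both lines of 0.02 (SE 0.07) and the dimmer one -0.13 (SE 0.07), and for Col6a5 they gave -0.03 (SE 0.07) and -0.01 (SE 0.09). None of the 4 passed.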
